A study of Mus musculus with 36 samples.

Results

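The genes described here encode the proteins of the cytosolic ribosome, together with their close paralogs and retroposed copies. They were taken from the array annotation as all genes whose symbol starts with Rpl or Rps and a digit, with the S6 kinase genes (Rps6k) and names containing -ps left out. A gene entered through a probe set annotated to it alone, and where a gene had several such probe sets the brightest over all arrays was used. This gave 51 probe sets for 44 genes, out of 30176 genes with a single-symbol probe set. Of the 44 genes, 17 encode core proteins of the large (60S) subunit and 14 core proteins of the small (40S) subunit. A further 6 are paralogs, 6 are retroposed copies or pseudogenes, and Rps19bp1 encodes a protein that binds Rps19 and is not a ribosomal subunit.

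The ribosome translates mRNA into protein, and its 2 subunits are built from ribosomal RNA and one copy each of most ribosomal proteins. Because the proteins are needed in equal numbers, their genes are among the most coordinately expressed in mammalian cells, and their mRNAs are among the most abundant. These mRNAs belong to the TOP class, which starts with a C followed by an unbroken run of pyrimidines (C or T in DNA letters) through which their translation is controlled. ERK, the kinase downstream of MEK1/2, signals to the translation machinery through the RSK and MNK kinases and phosphorylation of Rps6, so the genes were compared across a MEK inhibitor, light and time of day.

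The arrays measured RNA of the suprachiasmatic nucleus (SCN), the hypothalamic nucleus that holds the master circadian clock, of C57BL/6J mice aged 8 to 14 weeks. After 2 days in darkness, all mice were infused through a lateral ventricle cannula with vehicle (DMSO) or with 10 mM U0126, an inhibitor of MEK1/2, and 30 min later received a 10 min light pulse of 100 lux (Light) or stayed dark (Sham). This was done at CT4 in the subjective day, CT15 in the early and CT22 in the late subjective night, which gave the groups DMSO-Sham, DMSO-Light, U0126-Sham and U0126-Light at each time. Each of the 12 groups had 3 arrays, and each array held the pooled SCN of 2 mice, so an array is 1 pool rather than 1 animal. The infusion reaches tissue beyond the SCN. The labels give circadian times (CT) and collection 60 min after the pulse, while the study's text uses zeitgeber times for the same groups and its design gives 50 min.

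The values were log2 signals as deposited, so a difference of 1 is a doubling, and because a level depends on the probes, levels of different probe sets were not read as relative amounts of RNA. The array medians lay between 4.51 and 4.66, the highest correlation between any pair of arrays was 0.9965, and no pair held identical values. Of 13 listed SCN neuron genes, 12 had a probe set, and among them the neuropeptide genes Avp and Vip differed between CT15 and CT4 by -1.12 ± 0.13 (SE, adjusted p = 6.28e-07) and 0.65 ± 0.14 (adjusted p = 0.00106) on the log2 scale. The share of SCN cells in the samples was not measured. Dusp4, a phosphatase gene induced by ERK signalling, was lower with U0126 averaged over light and time by a log2 fold change of -0.66 ± 0.06 (SE, adjusted p = 3.85e-08), a check of the drug. Arrays with high Xist, an RNA made from the inactive X chromosome of female cells, numbered 9 of 12 at CT4, 7 of 12 at CT15 and 5 of 12 at CT22. In bulk tissue, fewer cells of a type and less RNA per cell cannot be told apart.

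Start-site sequences are shown for genes that carry the time difference and for genes that do not share it, since a pyrimidine run at the start marks much of this gene class. The measured probe sets of Rpl35, Rpl7a, Rpl41 and Rpl31 lie on another chromosome than the start sites shown, so their values cannot be assigned to these start sites. A dimmer probe set on the gene's chromosome was also higher at CT22 than at CT4 for Rpl35 (0.41), Rpl7a (0.31) and Rpl41 (0.36). RefSeq start sites (GRCm38.p6) were found for 36 of the 44 genes, and the 40 bases from 20 before to 20 after the start are printed 5′ to 3′ on the gene's strand, with the longest run of C and T that begins in this window in capitals. The first 4 belong to genes that were higher at CT22 than at CT4 and have a long run, the next pair to genes that were higher and have a short run, and the last pair to genes with a long run that were not higher. In the first 4 the run spans the annotated start, while in the last pair it ends before the start, so these runs are not alike in position.
Rpl35 (chr2:39005112-39005151, minus strand): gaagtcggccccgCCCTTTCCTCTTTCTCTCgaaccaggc
Rps10 (chr17:27635225-27635264, minus strand): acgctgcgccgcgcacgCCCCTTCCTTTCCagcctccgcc
Rps18 (chr17:33955646-33955685, minus strand): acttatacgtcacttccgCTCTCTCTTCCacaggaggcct
Rpl7a (chr2:26910787-26910826, plus strand): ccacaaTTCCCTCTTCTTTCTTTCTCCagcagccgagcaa
Rpl37a (chr1:72711240-72711279, plus strand): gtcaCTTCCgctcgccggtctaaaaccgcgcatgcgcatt
Rpl41 (chr10:128549149-128549188, minus strand): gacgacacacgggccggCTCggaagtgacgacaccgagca
Rpl31 (chr1:39367831-39367870, plus strand): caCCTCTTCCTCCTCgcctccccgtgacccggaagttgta
Rpl4 (chr9:64173367-64173406, plus strand): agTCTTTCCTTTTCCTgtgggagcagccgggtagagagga

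A run of at least 8 pyrimidines that begins within 20 bases of the start was present in 18 of the 36 genes (50%), against 19.6% of 27025 genes with a start-site sequence. A C at the start followed by 4 pyrimidines was present in 13.9% of the 36 and in 3.01% of all. The letters CCGGAA, the core of the motif bound by ETS-family factors, occurred on either strand of the 300 bases around the start (250 before, 50 after) in 52.8% of the 36 genes and in 16.7% of all. CCAAT occurred in 22.2% against 41.1%, TATAAA in 13.9% against 15.7%, GGGCGG in 50% against 38.2%, and ATGGCGGC in 2.78% against 2.6%, each on either strand. Matches can share bases, since TTCCGG, the other strand of CCGGAA, can run into GGGCGG or end a pyrimidine run. The median log2 difference between CT22 and CT4 was 0.243 in the 18 genes with a run (from -0.065 to 0.485) and 0.181 in the 18 without (from 0.011 to 0.495). With CCGGAA it was 0.222 in 19 genes and without it 0.236 in 17. These medians include Rpl35, Rpl7a, Rpl41, Rpl31, Rpl12 and Rpl27, whose measured probe sets lie on another chromosome than the gene. Their values cannot be assigned to the start sites, so the medians do not tie the letters to the time difference. A match is a description of these letters only, and an annotated start can lie some bases from the one used in the SCN.

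Time of day was the comparison in which the ribosomal protein genes moved. The mean of the 44 genes on an array lay between 7.788 and 7.916 at CT4 (median 7.839, 12 arrays), between 7.679 and 7.886 at CT15 (median 7.829), and between 7.999 and 8.150 at CT22 (median 8.050). Every CT22 array thus lay above every array of the other two times, while CT4 and CT15 overlapped. Within CT22 the 4 treatment means were close, at 8.080 ± 0.061 (SD, n = 3) in DMSO-Sham, 8.041 ± 0.029 in DMSO-Light, 8.070 ± 0.018 in U0126-Sham and 8.039 ± 0.043 in U0126-Light. The lowest array of all was DMSO-Light CT15 replicate 3, at 7.679. The mean over the brightest probe set of all 30176 genes moved less, from 5.450 ± 0.014 at CT4 (SD, n = 12) and 5.441 ± 0.010 at CT15 to 5.490 ± 0.021 at CT22.

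**Figure D1:**
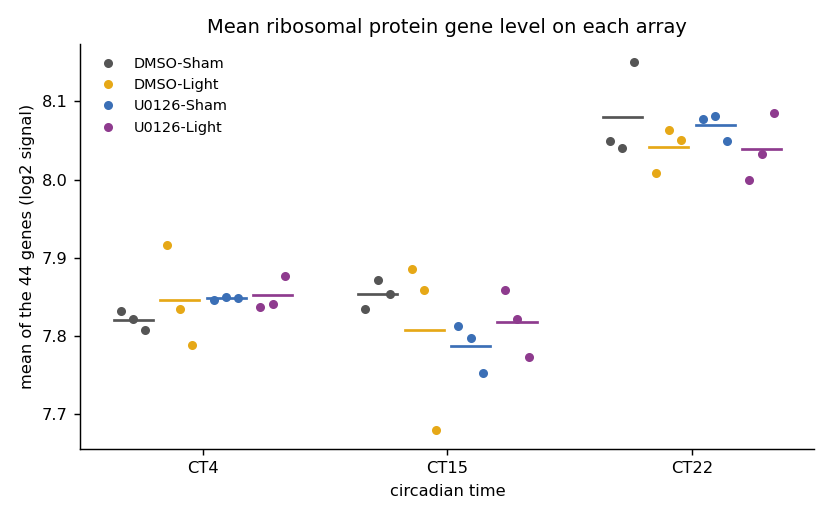
Mean log2 signal of the 44 ribosomal protein genes (vertical axis) on each of 36 arrays by circadian time (horizontal axis), with 3 arrays (points) and their mean (line) for each treatment. The 12 CT22 arrays lie between 7.999 and 8.150, above all CT4 and CT15 arrays, whichever the treatment.

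A probe set passed when its adjusted p did not exceed 0.1 and its fold change exceeded 1.3 (a log2 difference of 0.379), which are the study's thresholds, in limma's moderated test with Benjamini-Hochberg adjustment over all 65956 probe sets. Averaged over the 4 treatments, 5 of the 44 genes were higher at CT22 than at CT4 and 0 lower, where 1.04% of all probe sets were higher and 0.914% lower. By the adjusted p alone, 34 of the 44 (77.3%) were higher against 24.3% of all probe sets, and 1 was lower against 15.1%. The median log2 difference was 0.225 over the 44 genes and 0.035 over all probe sets, and 42 of the 44 differences were above 0. Against CT15, 10 genes were higher at CT22 and 0 lower (2% and 5.31% of all probe sets). By the adjusted p alone, 33 were higher and 1 lower against 29.3% and 21.9%, with a median of 0.273 against 0.037. Over the 9736 genes with a signal at or above the lower quartile of the 44, the median was -0.011 for CT22 minus CT4 and 0.031 for CT22 minus CT15. Of these genes, 27.7% were higher and 31.9% lower against CT4 by the adjusted p alone, and 42.6% and 33.6% against CT15. Rescaling the arrays on single-symbol probe sets alone lowered the medians of the 44 to 0.17 and 0.22, and the count against CT4 from 5 to 3, with Rpl35 (0.35) and Rpl41 (0.37) then under the fold threshold.

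In 18 of the 44 genes every CT22 array lay above every CT4 and every CT15 array, a pattern found in 0.766% of all probe sets. Time accounted for a median of 70.5% of a gene's variance over the 36 arrays, and for over 50% in 31 of the 44. These variance shares were not computed for other probe sets, so they are not read as particular to the 44 genes. A test for any difference among the 12 groups passed in 33 of the 44 genes, against 41% of all probe sets and 75.6% of genes of like signal, a share close to that of other bright genes.

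Large-subunit genes held the largest differences. Rpl37a, a zinc-finger protein of the 60S subunit (chr1:72711260-72713813), ranged from 7.901 to 8.140 at CT4 (median 8.015, 12 arrays), from 7.746 to 8.104 at CT15 (median 8.015) and from 8.410 to 8.743 at CT22 (median 8.482). All its CT22 arrays were above all others, and it was higher at CT22 than at CT4 by 0.50 ± 0.04 on the log2 scale (SE, 1.41-fold, adjusted p = 2.17e-09) and than at CT15 by 0.53 ± 0.04 (adjusted p = 7.47e-11). Rpl35, which sits near the exit of the tunnel through which the new protein leaves, had the largest difference between CT22 and CT15, 0.58 ± 0.04 (1.49-fold, adjusted p = 5.94e-12). Its arrays ranged from 9.778 to 10.047 at CT4, from 9.535 to 9.860 at CT15 and from 10.204 to 10.470 at CT22, and the CT22 range stood apart. It was also lower at CT15 than at CT4 by the adjusted p alone, with a log2 difference of -0.16 ± 0.04 (adjusted p = 0.00278) under the fold threshold. This Rpl35 probe set lies on another chromosome than the gene. The dimmer probe set on the gene's chromosome gave 0.51 against CT15 and 0.41 against CT4, and passed in both.

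Rpl41, the smallest ribosomal protein, ranged from 10.412 to 10.687 at CT4, from 10.410 to 10.745 at CT15 and from 10.854 to 11.277 at CT22. Its log2 difference was 0.46 ± 0.04 against CT4 (adjusted p = 3.07e-08) and 0.47 ± 0.04 against CT15 (adjusted p = 2.85e-09), with all CT22 arrays above the rest. This Rpl41 probe set also lies on another chromosome than the gene. The dimmer probe set on the gene's chromosome gave 0.36 against CT4, under the fold threshold, and 0.39 against CT15. Rpl39, an X-linked gene whose short protein lines the exit tunnel, rose by 0.43 ± 0.04 (adjusted p = 5.45e-08) and 0.50 ± 0.04 (adjusted p = 4.84e-10) in the same comparisons. Its CT22 arrays (7.853 to 8.192) did not overlap those of CT4 (7.397 to 7.731) or CT15 (7.226 to 7.631). Rpl27, Rpl19 and Rpl38 passed against CT15, at 0.47, 0.44 and 0.42, and were under the fold threshold against CT4, at 0.34, 0.23 and 0.22. The Rpl27 values are from a probe set on another chromosome than the gene. Its dimmer probe set on the gene's chromosome gave 0.29 against CT15, under the fold threshold. Rpl38, which is known for its part in the translation of Hox mRNAs in mouse embryos, was also the only one of the 44 with every CT15 array below every CT4 array (0.738% of all probe sets), at 9.180 to 9.574 against 9.580 to 9.706.

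Other large-subunit genes showed a smaller difference or none that passed either rule. Rpl7a, Rpl10a of the L1 stalk, Rpl12 at the base of the stalk that recruits translation factors, Rpl22, Rpl8 and Rpl11, which also binds the p53 regulator Mdm2, were higher at CT22 in both comparisons by the adjusted p alone, with log2 differences from 0.09 for Rpl11 to 0.38 for Rpl8. Rpl4 and Rpl31 stood apart. Rpl4, whose loop reaches into the exit tunnel, ranged from 11.516 to 11.676 at CT4, from 11.449 to 11.649 at CT15 and from 11.430 to 11.573 at CT22, with all times overlapping. It was lower at CT22 than at CT4 by the adjusted p alone, at -0.06 ± 0.02 (adjusted p = 0.0399), and did not pass against CT15 (-0.04, adjusted p = 0.158). Rpl31, a neighbour of the tunnel exit, was lower at CT22 than at CT15 by the adjusted p alone, at -0.17 ± 0.04 (adjusted p = 0.00267), with arrays from 6.752 to 7.244 against 7.131 to 7.417. Its probe set, like those of Rpl7a and Rpl12, lies on another chromosome than the gene. Rpl6 and Rpl7 passed neither rule in either comparison, at 0.01 and 0.08 against CT4.

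Small-subunit genes moved the same way with a narrower spread. By the adjusted p alone, 13 of 14 were higher at CT22 than at CT4 and 12 of 14 than at CT15, against 24.3% and 29.3% of all probe sets. The medians were 0.246 and 0.275, and 0 and 1 passed the fold threshold. Rps10, the 1 that passed, ranged from 6.430 to 6.697 at CT4, from 6.262 to 6.581 at CT15 and from 6.759 to 7.064 at CT22, and was 0.44 ± 0.04 higher at CT22 than at CT15 (adjusted p = 3.54e-10). Rps19, the gene most often mutated in human Diamond-Blackfan anaemia, lay just under the fold threshold, at 0.37 ± 0.03 against CT4 (adjusted p = 9.88e-09) and 0.38 ± 0.03 against CT15 (adjusted p = 8.53e-10). Its CT22 arrays (6.305 to 6.501) stood above those of CT4 (5.946 to 6.144) and CT15 (5.837 to 6.129). Rps14, Rps28, Rps26, Rps9, Rps18 and Rps20 also had every CT22 array above all others, with differences from 0.24 to 0.33 against CT4. The X-linked Rps4x passed neither rule, at 0.05 ± 0.04 against CT4 (adjusted p = 0.377) and -0.06 ± 0.04 against CT15 (adjusted p = 0.248). Rps3a1 was higher at CT22 than at CT4 by the adjusted p alone (0.14 ± 0.03, adjusted p = 0.00142) and did not differ by either rule from CT15 (0.01 ± 0.03, adjusted p = 0.843). Rps6, the substrate of the S6 kinases, had a probe set shared with a pseudogene and is not among the 44 genes.

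**Figure D2:**
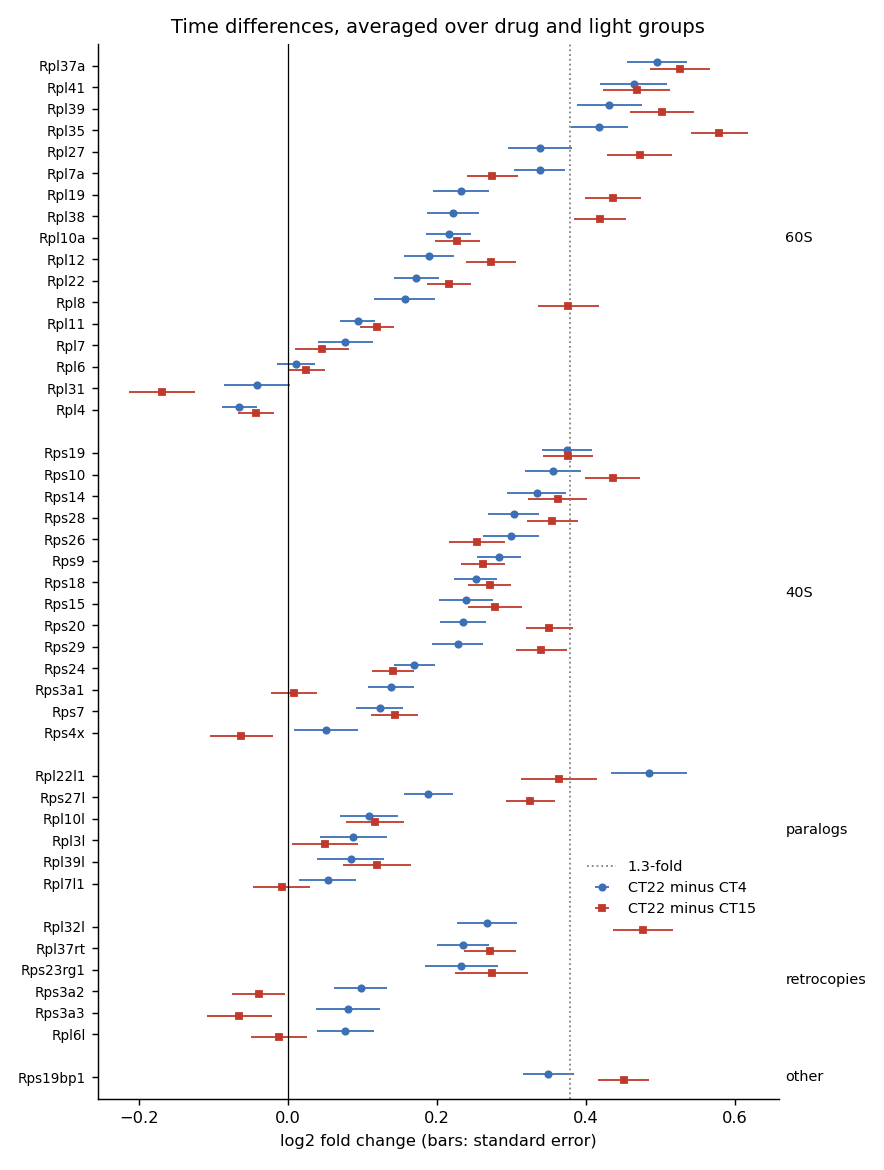
Log2 difference of CT22 from CT4 (circles) and from CT15 (squares), averaged over the 4 treatments, for each of the 44 genes grouped by role, with standard errors as bars and the 1.3-fold line dotted. Most points lie between 0.1 and 0.58, while Rpl4 and Rpl31 lie below 0 in both comparisons.

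Of the 6 paralogs, Rpl22l1, the paralog of Rpl22, moved most. It ranged from 6.456 to 6.919 at CT4, from 6.631 to 7.007 at CT15 and from 6.840 to 7.307 at CT22, so that the times overlapped. It was higher at CT22 than at CT4 by 0.49 ± 0.05 (1.40-fold, adjusted p = 1.11e-07) and than at CT15 by 0.36 ± 0.05 (adjusted p = 1.47e-06), beside 0.17 ± 0.03 and 0.22 ± 0.03 for Rpl22 itself. Rps27l, a paralog of Rps27 induced by p53, was higher by the adjusted p alone, at 0.19 and 0.33. The paralogs known from testis (Rpl10l, Rpl39l) and striated muscle (Rpl3l) and the Rpl7 paralog Rpl7l1 had differences from -0.01 to 0.12, with Rpl10l passing the adjusted p alone in both comparisons, Rpl39l only against CT15, and the other two in neither. The mean log2 signals of Rpl3l and Rpl39l over 36 arrays were 4.30 and 4.20.

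Of the 6 retroposed copies, Rpl32l, Rpl37rt and Rps23rg1 were higher at CT22 in both comparisons by the adjusted p alone, and Rpl32l passed the fold threshold against CT15 (0.48 ± 0.04, adjusted p = 3.44e-10). Rps3a2 was higher than at CT4 by the adjusted p alone (0.10), and Rps3a3 and Rpl6l passed neither rule. Rps3a2, Rps3a3 and Rpl6l are annotated as pseudogenes. Probes in such copies can also bind mRNA of the parent gene, so their values cannot be assigned to the copy alone. Rps19bp1, which is not a ribosomal subunit, was 0.45 ± 0.03 higher at CT22 than at CT15 (adjusted p = 6.15e-11) and 0.35 ± 0.03 than at CT4 (adjusted p = 3.71e-08). Its CT22 arrays (7.452 to 7.661) were above all others.

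**Figure D3:**
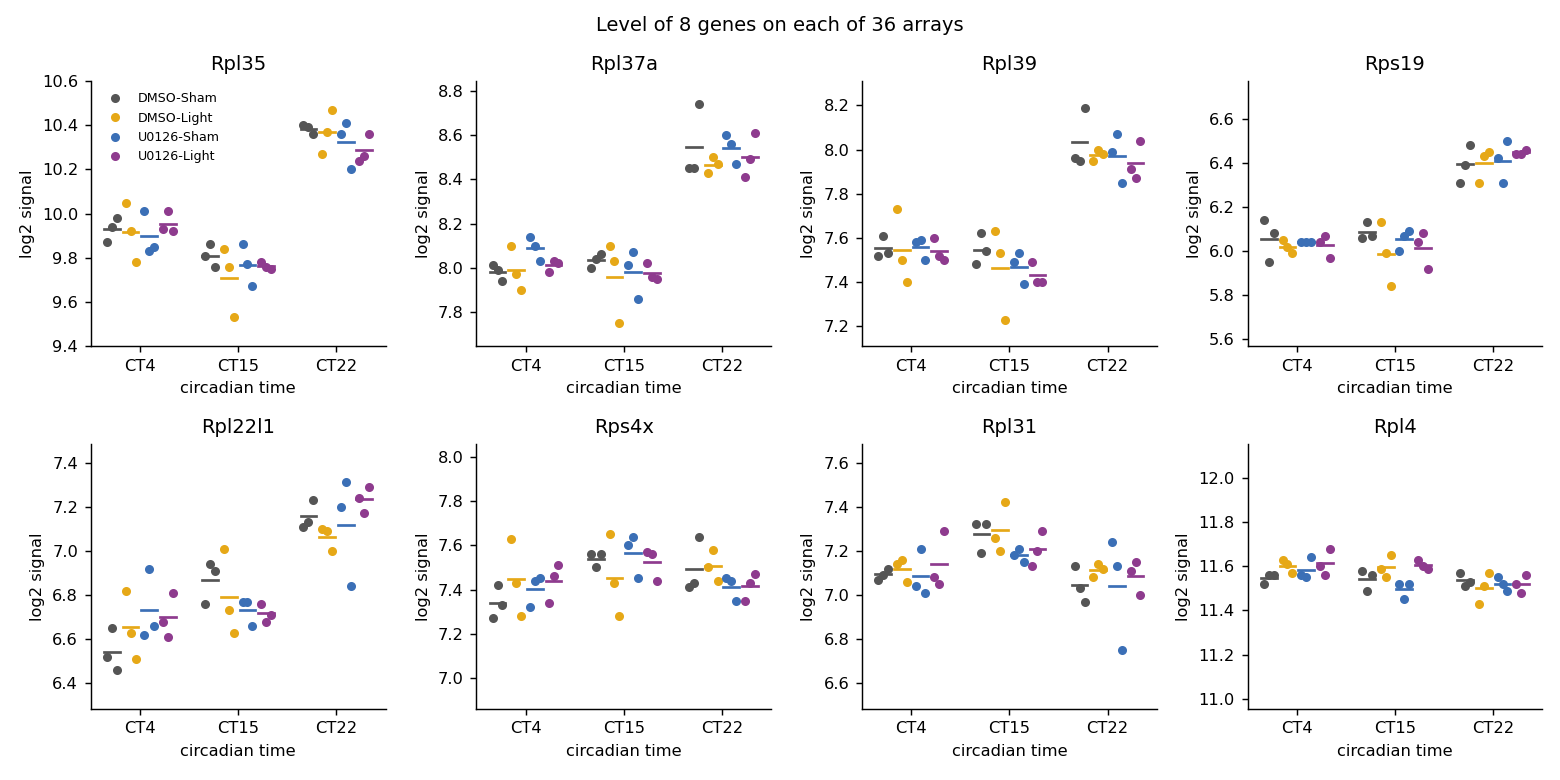
Log2 signal (vertical axes, each spanning 1.2) of 8 genes on each of 36 arrays by circadian time, with 3 arrays (points) and their mean (line) per treatment. Rpl35, Rpl37a, Rpl39 and Rps19 separate CT22 from the other times, Rpl22l1 is higher with overlap, and Rps4x, Rpl31 and Rpl4 overlap across times.

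Between CT15 and CT4 the 44 genes split, with 0 passing the fold threshold (1.38% of all probe sets higher, 0.415% lower). By the adjusted p alone, 11 were lower (25%, against 10.5% of all probe sets) and 5 higher (11.4%, against 13.8%). The lower genes were led by Rpl8 (-0.22), Rpl32l (-0.21), Rpl19 (-0.20) and Rpl38 (-0.20), and the higher were Rps3a1, Rps3a2, Rps3a3, Rpl31 and Rps4x, between 0.11 and 0.15. The 3 time comparisons share arrays, so their values are given side by side only.

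The same difference was present in each treatment taken alone. In DMSO-Sham, 11 genes passed for CT22 minus CT4 (1.95% of all probe sets higher) and 11 for CT22 minus CT15 (3.25%), all higher. Rpl37a measured 8.01, 7.99 and 7.94 at CT4, 8.00, 8.04 and 8.06 at CT15, and 8.45, 8.45 and 8.74 at CT22 in that treatment, without overlap between CT22 and the rest. In DMSO-Light, U0126-Sham and U0126-Light, in comparisons chosen after seeing the data, 5, 8 and 5 genes passed against CT4 (1.22%, 2.09% and 1.69% of all probe sets higher) and 11, 17 and 10 against CT15 (2.95%, 3.41% and 1.93%). The median log2 differences against CT4 were 0.27 in DMSO-Sham, 0.17 in DMSO-Light, 0.21 in U0126-Sham and 0.17 in U0126-Light. Rpl37a, Rpl39 and Rpl22l1 passed against CT4 in all 4 treatments, and Rpl35, Rpl37a, Rpl39, Rpl27 and Rps19bp1 passed against CT15 in all 4. The difference was above 0 in all 4 treatments in 38 of the 44 genes against CT4 and in 32 against CT15. The share of all probe sets above 0 in all 4 treatments was not counted, so these 2 counts have no background. Judged on the adjusted p alone, the numbers higher at CT22 than at CT4 in DMSO-Sham, DMSO-Light, U0126-Sham and U0126-Light were 29, 19, 25 and 19, against 4.33%, 2.54%, 7.6% and 6.02% of all probe sets, with 0 lower in each (2.82%, 1.56%, 4.89% and 4.5%). Against CT15 they were 27, 30, 33 and 28, against 8.92%, 10.7%, 16.1% and 9.65%, with 1 lower in DMSO-Sham and 0 in the others (6.96%, 9.52%, 15.8% and 11.7%). Between CT15 and CT4, 0 genes passed the full rule in any treatment. There, 2, 0, 1 and 0 were higher by the adjusted p alone (3.12%, 2.68%, 6.02% and 1.68% of all probe sets) and 0, 1, 5 and 1 lower (3.19%, 1.9%, 4.1% and 1.54%). The counts by the full rule moved with single arrays. Against CT4, the count in DMSO-Sham was 5 without CT22 replicate 3, which had the highest mean of the 44 genes (8.150), that in DMSO-Light was 8 without CT4 replicate 1 and 3 without CT4 replicate 2 or 3 or CT22 replicate 2, that in U0126-Sham was 5 without CT22 replicate 1, and that in U0126-Light was 3 without CT22 replicate 3. Against CT15, the count in DMSO-Light was 5 without CT15 replicate 3. Fitted on the arrays of the comparison alone, 6 genes passed against CT4 in DMSO-Sham, 1 in DMSO-Light and 0 in U0126-Sham.

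Other values moved with time in the same tissue. The 8 microglia genes, as a mean per array, ranged from 6.498 to 7.197 at CT4, 6.371 to 6.793 at CT15 and 6.691 to 7.548 at CT22, and were highest in DMSO-Sham CT22 (7.339 ± 0.209, SD, n = 3). Averaged over the 4 treatments, 75% of these 8 genes were higher at CT22 than at CT4 by the adjusted p alone, with a median of 0.173. Against CT15, 87.5% were higher, with a median of 0.348, and 0% were lower in either comparison. The 44 ribosomal protein genes gave 77.3% and 75%, and all probe sets 24.3% and 29.3%. In DMSO-Sham the median of the microglia log2 differences between CT22 and CT4 was 0.49. In U0126-Sham that median was -0.05, while the median of the 44 ribosomal protein genes was 0.21. By the full rule, 0 of 8 microglia genes and 8 of 44 ribosomal protein genes were higher there (2.09% of all probe sets). Fitted on the arrays of that comparison alone, 0 of the 44 passed, so the 2 counts are given side by side only. Of 8 meningeal fibroblast genes, 4 were lower and 1 higher at CT22 than at CT4 by the adjusted p alone, with a median of -0.24. The 7 leukocyte genes had a median difference from CT4 of 0.36 in DMSO-Sham, with Lyz2 at 2.24 ± 0.59 (SE, adjusted p = 0.024), and of -0.02, -0.13 and 0.04 in DMSO-Light, U0126-Sham and U0126-Light. Gfap, an astrocyte gene, was 0.89 ± 0.29 higher in DMSO-Sham (adjusted p = 0.0725), while the 6 astrocyte genes had a median of 0.02 there. In that treatment all 6 oligodendrocyte genes were above 0 against CT4, with a median of 0.306 and 0 called by either rule. The 12 SCN neuron genes had a median of 0.162, with 3 higher and 1 lower by either rule. Averaged over the treatments, the medians of these 2 lists were 0.038 and -0.017. Of 5 ependyma and choroid plexus genes, 4 were higher at CT22 than at CT15 by the adjusted p alone, averaged over the treatments, with a median of 0.18, and Tmem212 (0.65) and Ccdc153 (0.47) passed the full rule. The part of these cells in the time difference was not tested. With Xist as a covariate, 36 of the 44 genes were higher at CT22 than at CT4 by the adjusted p alone, against 34 without it. The share of all probe sets called in the fit with Xist was not counted. The files name no batch or scan date, and the arrays of a time may have been processed together, so time and processing run cannot be told apart.

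**Figure D4:**
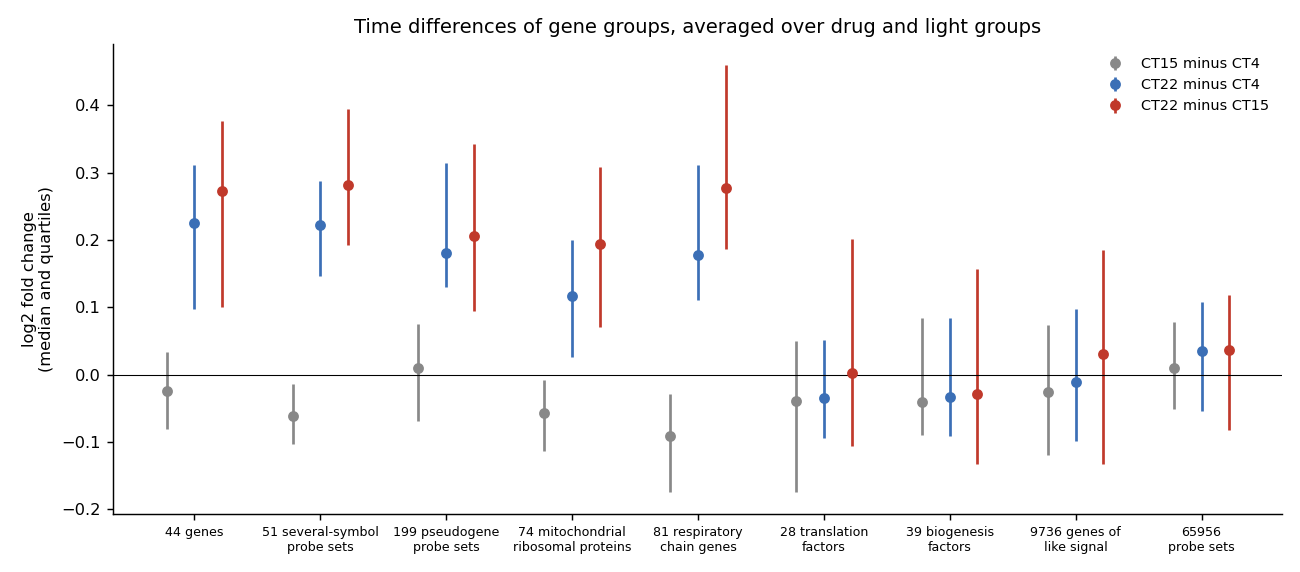
Median log2 difference (points) and quartiles (bars) of gene groups for CT15 minus CT4, CT22 minus CT4 and CT22 minus CT15, averaged over the 4 treatments. The ribosomal protein groups, the mitochondrial ribosomal proteins and the respiratory chain genes lie above 0 for both CT22 comparisons, while translation and biogenesis factors lie near 0.

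The array reads ribosomal protein sequences at more places than the 44 genes, and these moved alike. Of 51 probe sets that carry a ribosomal protein symbol beside others, 47 (92.2%) were higher at CT22 than at CT4 by the adjusted p alone and 0 lower, with a median of 0.222. Of 199 probe sets of ribosomal protein pseudogenes, 168 (84.4%) were higher and 1 lower, with a median of 0.181. Among all probe sets, 24.3% were higher and 15.1% lower. Probe sets of one sequence family share targets, so these are not independent measurements. Where a gene had a second probe set the direction was mostly shared: Rpl35 gave 0.42 and 0.41 for CT22 minus CT4 on its 2 probe sets, Rpl41 0.46 and 0.36, Rpl7a 0.34 and 0.31, and Rpl27 0.34 and 0.20. Rps23rg1 was an exception, at 0.23 on the brighter and -0.02 on the dimmer probe set. The 3 probe sets of Rps26 were all above 0, at 0.30, 0.27 and, on the dimmest, 0.02. The brightest probe set of Rpl41, Rpl12, Rpl35, Rpl27, Rpl7a and Rpl31 lies on another chromosome than the gene.

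Of 8 listed ribosomal components whose names fall outside the rule, 3 had a single-symbol probe set. Fau, which encodes Rps30 as a fusion protein, was higher at CT22 than at CT15 by 0.69 ± 0.04 (adjusted p = 1.89e-12) and than at CT4 by 0.34 ± 0.04. The stalk protein Rplp0 and the 40S protein Rpsa were higher by 0.32 and 0.34 against CT15 and by 0.23 and 0.16 against CT4, all by the adjusted p alone. Among other parts of the translation machinery, 28 initiation and elongation factors had a median of -0.034 for CT22 minus CT4 and 39 ribosome biogenesis factors -0.033. By the adjusted p alone, 7 of the 28 were higher and 12 lower, and 12 of the 39 higher and 14 lower (24.3% and 15.1% of all probe sets). Eif3k, Eif3i and Eif6, the last of which keeps free 60S subunits from joining, passed against CT15 at 0.45, 0.44 and 0.39. In that comparison 42.9% of the 28 factors were higher and 39.3% lower by the adjusted p alone, with a median of 0.003. Among all probe sets these shares were 29.3% and 21.9%. The 74 mitochondrial ribosomal proteins, whose ribosome is a separate one, had a median of 0.116 against CT4 (47 higher, 6 lower) and 0.194 against CT15, with the largest difference against CT15 in Mrpl43, at 0.56. The 81 nuclear-encoded respiratory chain genes, a list chosen after seeing the data, had medians of 0.178 and 0.278. By the adjusted p alone, 82.7% of them were higher against CT4 and 90.1% against CT15, with 1.23% and 2.47% lower. The 44 genes gave 77.3% and 75% higher, and all probe sets 24.3% and 29.3%.

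The drug and light comparisons gave no call among the 44 genes. Light against sham was compared in vehicle and under U0126 at each time, and 0 genes passed in any of the 6 comparisons, by the full rule or by the adjusted p alone in limma. Between 0 and 3 genes per comparison reached an unadjusted p below 0.05 and the smallest adjusted p was 0.317. The medians lay between -0.064 and 0.035, and no single difference lay outside -0.19 (Rps27l) to 0.16 (Rps15). In DMSO at CT15, where 0.091% of all probe sets were higher and 0.0136% lower, the median of the 44 was -0.064, and it was 0.007 without DMSO-Light CT15 replicate 3 and -0.111 without DMSO-Light CT15 replicate 1. In DMSO at CT22, where 0.139% were higher and 0.52% lower, it was -0.036. In the remaining 4 light comparisons 0% of all probe sets passed. By the adjusted p alone, 0.0986% were higher and 0.0136% lower in DMSO at CT15, 0.186% and 0.637% in DMSO at CT22, and 0% and 0.00152% in DMSO at CT4.

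U0126 against DMSO gave 0 calls in its 6 comparisons, with 0 to 6 genes at an unadjusted p under 0.05 and a smallest adjusted p of 0.126. Medians ran from -0.075 to 0.036 and single differences from -0.17 to 0.22. The comparison with most calls elsewhere was sham at CT15, where 3.41% of all probe sets were higher and 0.0728% lower with U0126 (3.68% and 0.355% by the adjusted p alone). There the 44 genes had a median of -0.075, with Rpl19 lowest at -0.17 and the pseudogene Rpl6l highest at 0.15, and Rpl11, at an unadjusted p of 0.00595, nearest to a call. In sham at CT22, 0.097% of all probe sets were higher and 1.02% lower (0.209% and 1.28% by the adjusted p alone). In light, 0.139% were higher and 0.094% lower at CT15 (0.159% and 0.186% by the adjusted p alone), 0.00455% and 0.0091% at CT4 (0.00455% and 0.0136%), and 0.00152% and 0.0121% at CT22 by either rule, and in sham at CT4 0% passed. The testis paralog Rpl10l had the largest single difference, 0.22 in light at CT22. The light response under U0126 minus that in DMSO passed in 0 genes at each time (0% of all probe sets), with 0 to 1 genes at an unadjusted p under 0.05 and medians from -0.038 to 0.082. The 0.082, at CT15, was 0.013 without DMSO-Light CT15 replicate 3 and 0.129 without DMSO-Light CT15 replicate 1. For U0126 against DMSO in light at CT15 the median was 0.018, and it was -0.060 without DMSO-Light CT15 replicate 3 and 0.058 without replicate 1.

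Averaged over all other factors (18 arrays against 18), the difference for U0126 had a median of -0.011 and ranged from -0.07 for Rpl7l1 to 0.07 for Rpl10l, and that for light a median of -0.010 and a range from -0.06 for Rps19bp1 to 0.07 for Rps15, with 0 genes called in either by either rule and 2 genes at an unadjusted p under 0.05 in each. The precision bounds these values: the 95% confidence interval of a gene was a median of 0.061 to either side of the average difference and 0.149 within 1 time. For U0126, 0.00303% of all probe sets were higher and 0.123% lower (0.459% and 0.799% by the adjusted p alone), and for light 0.0091% and 0% (0.315% and 0.171%). For all 44 genes the interval of both averages lay within the 1.3-fold limits, as it did for 43 or 44 genes in each of the 6 light and 6 drug comparisons within a time and for 41 genes in each of the 3 differences of light responses. Dusp4 moved in the same arrays, at 0.74 ± 0.14 for light in DMSO at CT15 (adjusted p = 0.0234) and -0.98 ± 0.14 for U0126 in light at CT15 (adjusted p = 0.00101).

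**Figure D5:**
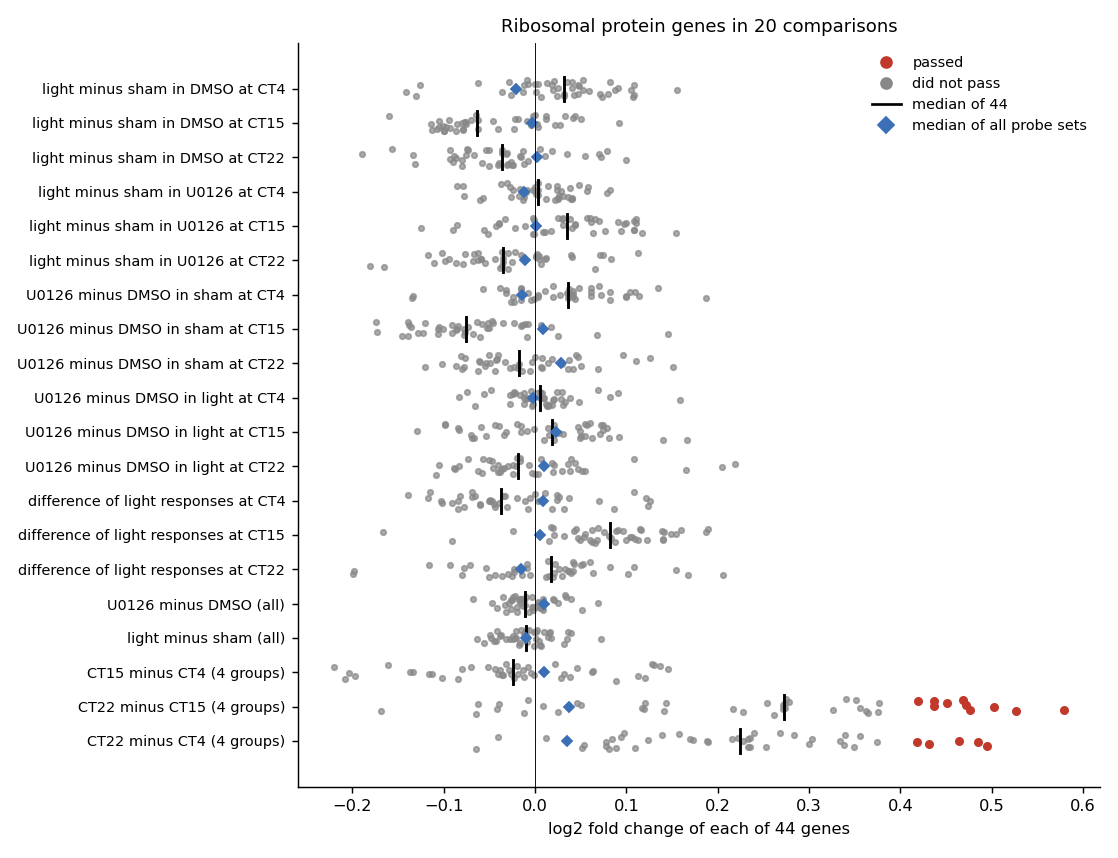
Log2 difference of each of the 44 genes (points) in 20 comparisons, with the median of the 44 (bar) and of all probe sets (diamond); genes that passed the adjusted p and fold thresholds are in red. All 17 drug and light comparisons lie within 0.22 of 0 with no call, and the calls fall in the CT22 comparisons.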

How the data were processed

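RNA of the SCN from 36 pools of 2 mice was hybridised to the GeneChip Mouse Transcriptome Assay 1.0. The log2 values were deposited by the authors, whose methods name oligo for R, and the exact call is not given in the sources used here. Depth does not apply to arrays, and the number of arrays limits the precision. No filter on level was set, and 6732 control probe sets were dropped. Symbols came from the platform annotation and positions from RefSeq (GRCm38.p6). All arrays were fitted with 12 group means in limma 3.58.1 (R 4.3.3), moderated tests were adjusted by Benjamini-Hochberg over 65956 probe sets, and the fit was tested on simulated data. P-values measure the spread between pools. Genes were named by a rule: in each comparison those that passed (up to 10 by p) and the 3 largest and 3 smallest differences, the extremes of mean and SD over arrays, the 5 smallest p of the 12-group test, paralogs, Rps6, Rps19bp1, X-linked genes, and up to 4 that passed on each related list; others were chosen after their values were seen. The members and lists were chosen with earlier results of these data known. Alternatives were a replicate block, other scalings, filters, thresholds and weights, covariates, and leaving out each array. Replicate numbers are shared between groups, and same-numbered arrays deviated together (every correlation over 0.1) in 2 of 18 pairs of groups, DMSO-Sham with U0126-Sham at CT4 and DMSO-Light with U0126-Light at CT15.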

Additional observations from a re-analysis of the deposited data

How the results depend on the processing

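In all 17 drug and light comparisons the count of genes that passed stayed at 0 under every alternative, the replicate block included. With the replicate block (consensus correlation 0.05) 5 genes passed for CT22 minus CT4 and 10 for CT22 minus CT15 averaged over the treatments, as without it, and it moved no other count by over 1.5 times. Of 54 arrays set against the 3 arrays of another group, 22 correlated best with their own number. Without the fold threshold the counts for CT15 minus CT4, CT22 minus CT4 and CT22 minus CT15 were 16, 35 and 34 averaged over the treatments, 2, 29 and 28 in DMSO-Sham, 1, 19 and 30 in DMSO-Light, 6, 25 and 33 in U0126-Sham and 1, 19 and 28 in U0126-Light, counting both directions. Quantile normalization of single-symbol probe sets gave 3 for CT22 minus CT4 averaged, 5 in DMSO-Sham, and 10 for CT22 minus CT15 in U0126-Sham, and it lowered the averaged medians to 0.17 and 0.22. Fitting only the arrays of the comparison gave 6 for CT22 minus CT4 in DMSO-Sham, 1 in DMSO-Light and 0 in U0126-Sham, and array weights gave 7 in DMSO-Sham. Leaving out 1 array at a time moved the averaged counts only from 5 to 6 and from 10 to 13, and the 34 and 33 genes higher by the adjusted p alone kept that call in every such fit. Within a treatment the ranges for CT22 minus CT4 were 5 to 14 (DMSO-Sham, 5 without CT22 replicate 3), 3 to 8 (DMSO-Light: 8 without CT4 replicate 1, 3 without CT4 replicate 2 or 3 or CT22 replicate 2), 5 to 9 (U0126-Sham, 5 without CT22 replicate 1) and 3 to 5 (U0126-Light, 3 without CT22 replicate 3). For CT22 minus CT15 they were 9 to 14, 5 to 14 (5 without DMSO-Light CT15 replicate 3), 13 to 17 and 9 to 13, and for CT15 minus CT4 0 to 1 in DMSO-Sham (1 without CT4 replicate 2 or CT15 replicate 1) and in U0126-Sham (1 without CT4 replicate 3). The cause of these changes was not tested. None of the genes that passed in DMSO-Sham or in the averages changed sign under an alternative.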
